A study of Mus musculus with 13 samples.

Results

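The levels of 9 mature miRNAs that are enriched in nervous tissue were followed in the plasma of mdx and wild type mice: mmu-miR-9-5p, mmu-miR-9-3p, mmu-miR-124-3p, mmu-miR-124-5p, mmu-miR-129-5p, mmu-miR-129-1-3p, mmu-miR-129-2-3p, mmu-miR-219a-5p and mmu-miR-219a-2-3p. The prefix for mouse is mostly left out below. They were chosen by name, with earlier results of these data known, as 9 of the 1907 mature mouse miRNAs in the deposited table of raw counts. All 9 had at least 1 count somewhere, among 1203 miRNAs that did. Only 4 of the 9 passed the filter on low counts that left 368 miRNAs for the test across all miRNAs: miR-9-5p, miR-9-3p, miR-129-5p and miR-219a-2-3p. For the other 5 the counts and the limits of detection are given.

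miRNAs are short RNAs that guide Argonaute proteins to messenger RNAs, mainly through the seed at bases 2 to 8, and lower the output of those messengers. miR-124 is the most characteristic miRNA of neurons and represses transcripts of other cell types. miR-9 is abundant in neural progenitors and neurons, where it restrains factors that keep progenitors dividing. miR-129 is a neuronal miRNA linked to the control of excitability, and miR-219 is enriched in oligodendrocytes, where it promotes myelination. A hairpin precursor is cut into a 5p and a 3p arm, and usually 1 arm is kept in larger amounts. miRNAs leave cells in vesicles or bound to proteins, so plasma holds a mixture from many organs.

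Small RNA from plasma was sequenced in 13 male mice that were 7 to 8 weeks old at the start, with 1 library per mouse. The Givinostat group held 3 mice of the dystrophin-deficient mdx strain (C57BL10ScSn-Dmdmdx/J) that were given Givinostat, an inhibitor of histone deacetylases, by gavage at 37.5 mg/kg in 0.5% methylcellulose, on 5 days per week for 15 weeks. The vehicle group held 4 mdx mice given the methylcellulose on the same schedule. The 3 naive mdx mice and the 3 naive wt mice (C57BL/10J) were untreated, and all 10 mdx mice carried the dystrophin mutation. The design asks how mdx plasma differs from wild type plasma and how it responds to the drug. Libraries held 1364813 to 1437031 counts in the Givinostat group, 1283646 to 1522871 in the vehicle group, 1167161 to 1556118 in the naive mdx group and 1446195 to 2899315 in the naive wt group. The limit that a count of 0 allows is taken as 3 counts, which correspond to 1.03 to 2.57 CPM (counts scaled to a common library size) in a single library. Every liver, muscle and red blood cell marker checked had a count in every library.

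The mature sequences of 5 of the 9 miRNAs were found in RefSeq (GRCm38.p6). They are shown because they say which loci can have produced the counts. Each is written 5′ to 3′ with the seed in capitals, and miR-219a-1-3p, the 3p arm of the other miR-219a hairpin, is added for comparison.
miR-9-5p: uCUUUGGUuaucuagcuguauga
miR-9-3p: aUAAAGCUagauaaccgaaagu
miR-129-5p: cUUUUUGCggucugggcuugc
miR-129-2-3p: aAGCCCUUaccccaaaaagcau
miR-219a-5p: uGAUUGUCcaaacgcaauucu
miR-219a-1-3p: aGAGUUGCgucuggacgucccg
These 6 miRNAs have 6 different seeds. No other miRNA of the count table for which a mature sequence was found has one of them. For miR-124-3p, miR-124-5p, miR-129-1-3p and miR-219a-2-3p no mature sequence was found. Their seeds were therefore not compared, and they are named only.

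miR-9-5p and miR-9-3p are each identical at 3 loci, so a count of either arm cannot be assigned to 1 of them. The 3 hairpins are shown with both arms in capitals, and they differ only outside the arms.
Mir9-1: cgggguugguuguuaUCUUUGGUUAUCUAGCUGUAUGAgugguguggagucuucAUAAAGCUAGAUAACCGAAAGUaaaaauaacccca
Mir9-2: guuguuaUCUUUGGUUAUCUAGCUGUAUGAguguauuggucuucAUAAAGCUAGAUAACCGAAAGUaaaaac
Mir9-3: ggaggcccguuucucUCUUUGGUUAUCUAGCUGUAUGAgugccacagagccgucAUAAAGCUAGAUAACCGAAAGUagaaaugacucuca
Mir9-1 lies at chr3:88215598-88215686, Mir9-2 at chr13:83738814-83738885 and Mir9-3 at chr7:79505264-79505353, all on the plus strand. In the GENCODE annotation of the same build, Mir9-1 and Mir9-3 lie in introns of the non-coding genes Gm3764 and Mir9-3hg, and Mir9-2 overlaps an exon of C130071C03Rik.

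miR-129-5p is made from Mir129-1 (chr6:29022619-29022691, plus strand, within an exon of the non-coding gene Gm3294) and from Mir129-2 (chr2:94241364-94241453, minus strand, in an intron of Mir670hg). miR-129-2-3p comes from Mir129-2 alone, whose hairpin is shown with both arms in capitals.
Mir129-2: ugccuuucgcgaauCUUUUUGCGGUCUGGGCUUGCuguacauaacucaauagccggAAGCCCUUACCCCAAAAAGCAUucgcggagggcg
miR-219a-5p is made from Mir219a-1 (chr17:34024983-34025092, minus strand, overlapping an exon of the non-coding gene Gm26940) and from Mir219a-2 (chr2:29845631-29845727, minus strand, overlapping no longer gene). The 3p arms tell these loci apart: miR-219a-1-3p belongs to Mir219a-1, and miR-219a-2-3p carries the name of Mir219a-2. Mir129b, Mir219b and Mir219c lie on the opposite strand of Mir129-2, Mir219a-2 and Mir219a-1 and overlap them by 65, 65 and 60 bases. Whether the counting used the strand is not given in the sources used here. The miRNAs of these 3 hairpins together had 2 to 10 counts per library, and none of the 6 in the table passed the filter.

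All 9 miRNAs were minor components of plasma. Together they made up 0.00674% to 0.00782% of the counts in the Givinostat group, 0.00335% to 0.0157% in the vehicle group, 0.00471% to 0.00499% in the naive mdx group and 0.00511% to 0.0295% in the naive wt group. miR-129-5p was the most abundant, with 625 counts over the 13 libraries and rank 220 of 1203 by mean level. miR-9-5p followed with 511 counts and rank 239, then miR-219a-2-3p with 304 counts and rank 280, and miR-9-3p with 160 counts and rank 326. The other 5 had 61 counts (miR-124-3p), 24 (miR-129-2-3p), 24 (miR-219a-5p), 9 (miR-129-1-3p) and 2 (miR-124-5p). Levels below are CPM after TMM scaling, which divides each library by an effective size set by the bulk of its miRNAs. The scaling matters here because the liver miRNA list alone took 1.37% to 16.1% of the counts in mdx mice, against 37.6% to 64.6% in naive wt mice.

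**Figure D1:**
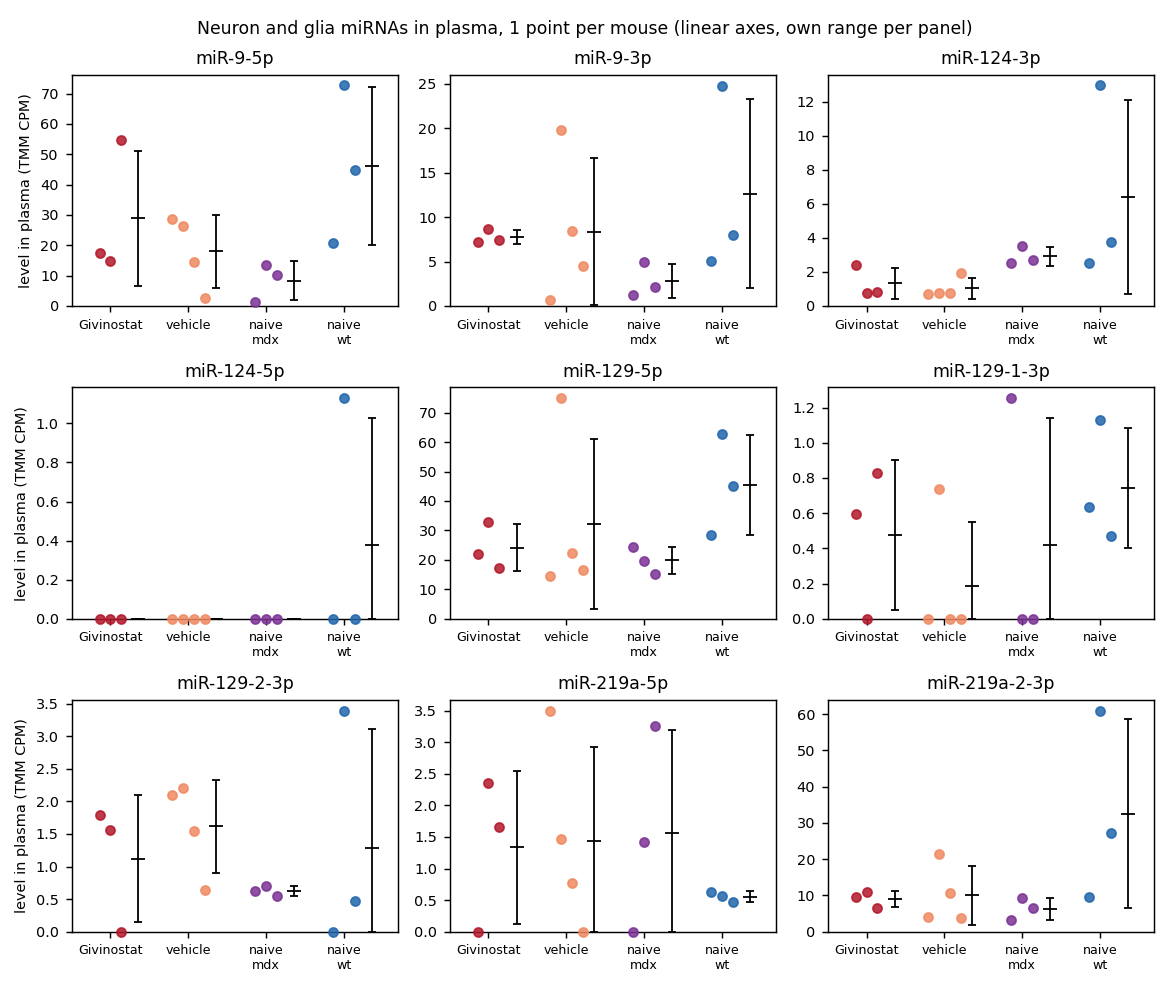
Level of each of the 9 miRNAs in plasma (TMM CPM, linear axis with its own range in each panel) by group. Points are single mice, and the black marks are the group mean and SD (n = 3, 4, 3 and 3, lower bars cut at 0). miR-9-5p reached 72.7 and miR-219a-2-3p 60.9 in naive wt mouse 89, while miR-124-5p had counts in that mouse only.

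Naive mdx plasma held less miR-9-5p, miR-9-3p and miR-219a-2-3p than naive wt plasma, by 4.55-fold to 5.53-fold. miR-129-5p was 2.30-fold lower without passing the test. These 4 miRNAs had a median log2 fold change of -2.28, beside 0.04 over all 368 tested. Plasma holds a mixture from many organs. Its levels do not tell the number of cells of a type from the RNA made or released per cell. The source of these differences was not tested.

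mmu-miR-9-5p, the main arm of the neuronal miR-9 hairpins, had 1.25, 13.4 and 10.3 CPM in naive mdx mice 36, 37 and 39, against 20.9, 72.7 and 44.7 CPM in naive wt mice 86, 89 and 95. Every naive mdx mouse was below every naive wt mouse, and mouse 36 was lowest with only 2 counts. In edgeR the log2 fold change was -2.47 (SE 0.756, 95% interval -4.07 to -0.87), with an adjusted p of 0.0147 by edgeR's quasi-likelihood test with Benjamini-Hochberg adjustment. It was the third lowest log2 fold change of 368 miRNAs, behind the 2 arms of the liver miRNA miR-122.

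mmu-miR-9-3p, the opposite arm of the same hairpins, had 1.25, 4.95 and 2.17 CPM in naive mdx mice 36, 37 and 39, against 5.06, 24.8 and 7.99 CPM in naive wt mice 86, 89 and 95. The groups did not overlap, but the highest naive mdx mouse and the lowest naive wt mouse were close, with 7 and 8 counts. This gave a log2 fold change of -2.19 (SE 0.799, 95% interval -3.88 to -0.49, edgeR adjusted p = 0.0349).

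mmu-miR-219a-2-3p, an arm of the oligodendrocyte miR-219 family, had 3.13, 9.19 and 6.51 CPM in naive mdx mice 36, 37 and 39, against 9.49, 60.9 and 27.3 CPM in naive wt mice 86, 89 and 95. The groups were separated only narrowly, by naive mdx mouse 37 and naive wt mouse 86, while naive wt mouse 89 was far above the rest. Its log2 fold change was -2.37 (SE 0.658, 95% interval -3.77 to -0.98, edgeR adjusted p = 0.00858), the fourth lowest of 368.

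mmu-miR-129-5p, the neuronal arm shared by both miR-129 hairpins, had 24.4, 19.8 and 15.2 CPM in naive mdx mice 36, 37 and 39, against 28.5, 62.6 and 45.1 CPM in naive wt mice 86, 89 and 95. The naive mdx mice were again all below the naive wt mice. The log2 fold change of -1.20 (SE 0.524, 95% interval -2.31 to -0.09) had an edgeR adjusted p of 0.072 and missed the threshold of 0.05.

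So 3 of the 4 tested miRNAs were called lower and 0 higher in naive mdx plasma, where 16.6% of all tested miRNAs were called lower and 26.9% higher, 43.5% in either direction. That split of 99 higher and 61 lower moved to 82 and 96 with upper-quartile scaling and to 118 and 23 with plain library totals, while 4 and 2 of the neuron and glia miRNAs were then called, all of them lower. All 4 had an unadjusted p under 0.05, as did 53.8% of all tested miRNAs. All 4 had groups that did not overlap, with naive mdx below, while groups did not overlap for 57.6% of all tested miRNAs and for 27.7% with naive mdx below.

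**Figure D2:**
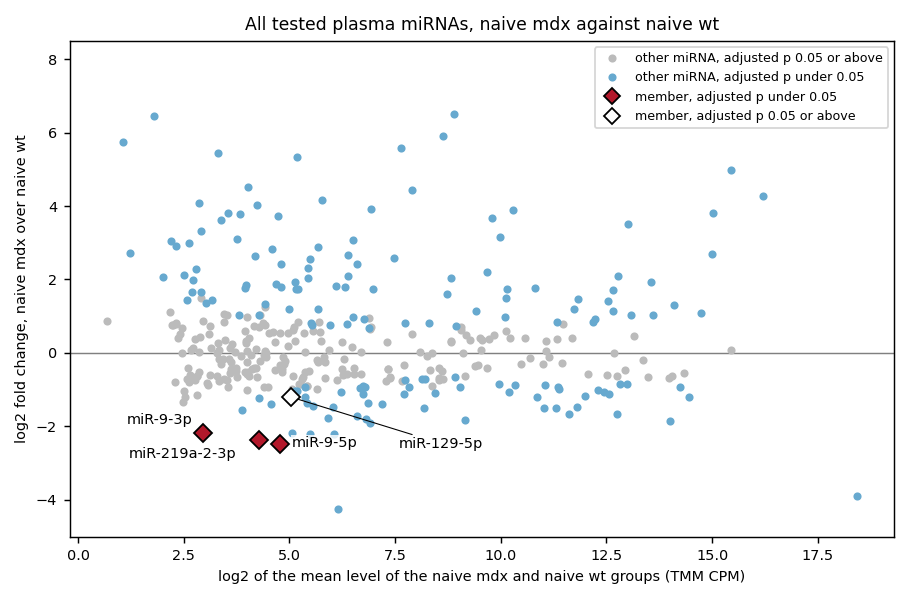
Log2 fold change of naive mdx over naive wt (vertical) against the log2 of the mean level of both groups in TMM CPM (horizontal) for the 368 tested miRNAs. Diamonds mark the 4 neuron and glia miRNAs (called members in the key), filled where the adjusted p was under 0.05; they lie between -2.47 and -1.20, among low to moderate levels.

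These calls rested heavily on naive wt mouse 89. It had the highest level of all 13 mice for 6 of the 9 miRNAs (miR-9-5p, miR-9-3p, miR-124-3p, miR-124-5p, miR-129-2-3p and miR-219a-2-3p) and the second highest for miR-129-5p and miR-129-1-3p. Its depth (1446195 counts) was the lowest of the naive wt group. Without it, 0 of the 4 were called in naive mdx against naive wt by edgeR, while 126 of all tested miRNAs still were. The log2 fold changes without it were -1.99 for miR-9-5p (adjusted p = 0.0657), -1.28 for miR-9-3p (adjusted p = 0.239), -0.92 for miR-129-5p (adjusted p = 0.207) and -1.59 for miR-219a-2-3p (adjusted p = 0.067). All 4 stayed below 0, but miR-9-3p shrank most.

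Leaving out other mice changed some calls. Without naive mdx mouse 36, which had the fewest miR-9-5p counts, only miR-219a-2-3p was called (log2 fold change -2.04, edgeR adjusted p = 0.0364). Without naive mdx mouse 39, miR-9-3p lost its call (adjusted p = 0.0921). Without naive wt mouse 86 or vehicle mouse 41, all 4 were called, miR-129-5p then with an adjusted p of 0.0405 and 0.0213. Across the runs that left out each mouse in turn, 126 to 168 of all tested miRNAs were called, beside 160 with all mice. The number for each run in this paragraph is not given here. Whether calls among the 4 moved with calls over all miRNAs therefore cannot be told.

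**Figure D3:**
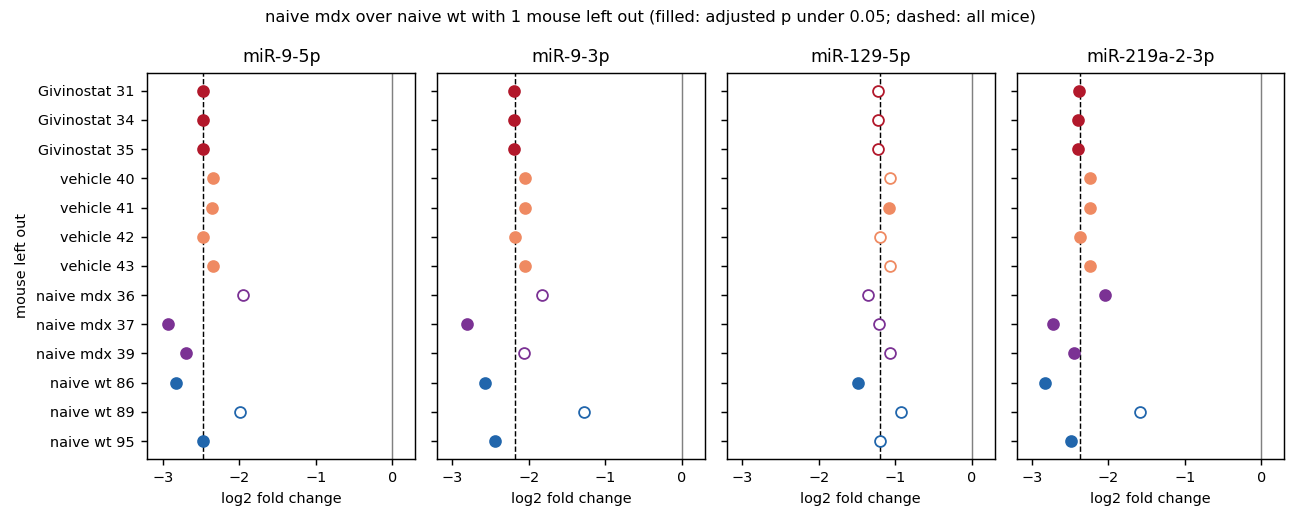
Log2 fold change of naive mdx over naive wt (horizontal) for the 4 tested miRNAs when the mouse named on the vertical axis was left out. Filled points had an adjusted p under 0.05 and the dashed line is the value with all mice; leaving out naive wt mouse 89 gave open points in every panel, from -1.99 to -0.92.

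The difference between the genotypes was smaller when the 3 mdx groups were averaged and set against naive wt, a contrast that shares its naive mdx and naive wt mice with the one above. miR-9-5p was 2.84-fold lower (log2 fold change -1.50, SE 0.527, edgeR adjusted p = 0.0252) and miR-219a-2-3p 3.93-fold lower (log2 fold change -1.97, SE 0.462, edgeR adjusted p = 0.00209) in mdx plasma. miR-9-3p (log2 fold change -1.17, edgeR adjusted p = 0.0824) and miR-129-5p (-0.87, edgeR adjusted p = 0.0696) did not pass. Thus 2 of 4 were called lower and 0 higher, beside 25.3% of all tested miRNAs lower and 28.8% higher (54.1% either way; 106 higher and 93 lower, or 88 and 127 with upper-quartile scaling and 112 and 44 with library totals), and the median of the 4 was -1.33 beside -0.07 over all. None of the 4 kept the 10 mdx mice apart from the 3 naive wt mice, whereas 36.4% of all tested miRNAs did, 15.2% with mdx below. An unadjusted p under 0.05 was found for 3 of the 4 and for 61.7% of all tested miRNAs. Without naive wt mouse 89, 0 of the 4 were called by edgeR here too, with miR-9-3p at -0.25 and miR-219a-2-3p at -1.19 (adjusted p = 0.068). On leaving out any 1 mouse, 149 to 224 of all tested miRNAs were called in this contrast.

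Single mdx mice reached the naive wt range. Vehicle mouse 41 had 75.0 CPM of miR-129-5p, above every naive wt mouse, and 19.8 CPM of miR-9-3p, second of the 13 mice. Givinostat mouse 35 had 54.6 CPM of miR-9-5p, second only to naive wt mouse 89. The 2 arms of miR-9 did not point to the same mouse, since Givinostat mouse 35 had 7.45 CPM of miR-9-3p, near its group's mean.

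Plasma of Givinostat mice did not differ detectably from plasma of vehicle mice in any of the 4 tested miRNAs. Across all 368 miRNAs this contrast gave 1 call (0.272%), and 25 (6.79%) at an unadjusted p under 0.05. None of the 4 was called by edgeR or DESeq2, and 0 of the 4 had an unadjusted p under 0.05. Groups overlapped for all 4, while 7.61% of all tested miRNAs had groups apart, 3.26% with Givinostat below.

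miR-9-5p had 17.3, 14.9 and 54.6 CPM in Givinostat mice 31, 34 and 35, against 28.6, 26.5, 14.6 and 2.56 CPM in vehicle mice 40, 41, 42 and 43. The groups overlapped, with 1 high Givinostat mouse and 1 low vehicle mouse. A log2 fold change of 0.67 was fitted (95% interval -0.75 to 2.09, edgeR adjusted p = 0.835), and it became -0.20 without Givinostat mouse 35.

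miR-9-3p was narrowly spread in the Givinostat group at 7.16, 8.61 and 7.45 CPM, against 0.698, 19.8, 8.46 and 4.48 CPM in vehicle mice 40, 41, 42 and 43. The vehicle mice lay on both sides of the Givinostat mice. Their log2 fold change was -0.10 (95% interval -1.59 to 1.39, edgeR adjusted p = 0.99).

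miR-129-5p had 22.1, 32.9 and 17.4 CPM in Givinostat mice 31, 34 and 35, against 14.7, 75.0, 22.3 and 16.6 CPM in vehicle mice 40, 41, 42 and 43. Vehicle mouse 41 alone was above all Givinostat mice. The log2 fold change was -0.41 (95% interval -1.46 to 0.64, edgeR adjusted p = 0.861) and turned to 0.37 without that mouse.

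miR-219a-2-3p had 9.54, 11.0 and 6.62 CPM in Givinostat mice 31, 34 and 35, against 4.19, 21.3, 10.8 and 3.84 CPM in vehicle mice 40, 41, 42 and 43. Vehicle mouse 41 was again the highest. The log2 fold change was -0.13 (95% interval -1.50 to 1.24, edgeR adjusted p = 0.99). Without vehicle mouse 41, miR-9-3p stood at 0.70 and miR-219a-2-3p at 0.49 on the log2 scale. The intervals were -0.75 to 2.09 for miR-9-5p and -1.59 to 1.39 for miR-9-3p. They were -1.46 to 0.64 for miR-129-5p and -1.50 to 1.24 for miR-219a-2-3p. For each miRNA, changes within its own interval could not be told from none.

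Vehicle mice were compared with naive mdx mice, from which they differ by the gavage with methylcellulose. All 4 fold changes were positive, but none passed (edgeR adjusted p = 0.801 for each), and 0% of all 368 miRNAs were called, with 17 (4.62%) at an unadjusted p under 0.05 and 0 of the 4 among them, and DESeq2 called 0 of the 4. Groups overlapped for all 4, while 2.17% of all tested miRNAs had groups apart, 1.09% with vehicle below. The log2 fold changes were 1.11 for miR-9-5p, 1.58 for miR-9-3p, 0.70 for miR-129-5p and 0.66 for miR-219a-2-3p. That of miR-9-3p was the largest of the 368 (95% interval -0.12 to 3.27, edgeR unadjusted p = 0.0659), with 0.698 to 19.8 CPM in vehicle mice, against 1.25 to 4.95 CPM in naive mdx mice. The groups overlapped, with the lowest vehicle mouse below every naive mdx mouse. This contrast shares its vehicle mice with the Givinostat contrast and its naive mdx mice with the genotype contrasts.

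**Figure D4:**
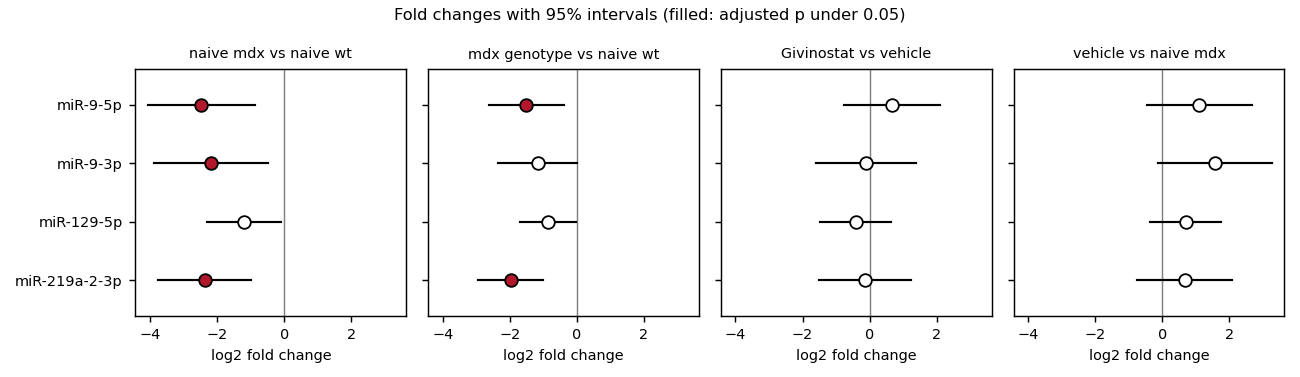
Log2 fold change (points) and 95% interval (lines) of the 4 tested miRNAs in 4 comparisons, each named as the group on top of the ratio and then the group below it. Filled points had an adjusted p under 0.05: 3 in naive mdx vs naive wt, 2 in mdx genotype vs naive wt, and 0 in the comparisons of Givinostat with vehicle and of vehicle with naive mdx.

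By group means, miR-9-5p stood in the order naive mdx (8.33 ± 6.33 CPM, SD, n = 3), vehicle (18.1 ± 12.0, n = 4), Givinostat (28.9 ± 22.3, n = 3) and naive wt (46.1 ± 25.9, n = 3), and every pair of neighbours overlapped. miR-9-3p stood in the order naive mdx (2.79 ± 1.92 CPM), Givinostat (7.74 ± 0.77), vehicle (8.37 ± 8.28) and naive wt (12.6 ± 10.7). Its Givinostat mice lay wholly above its naive mdx mice, a pair that was not tested, while the other neighbours overlapped. miR-129-5p stood in the order naive mdx (19.8 ± 4.61 CPM), Givinostat (24.1 ± 7.95), vehicle (32.1 ± 28.7) and naive wt (45.4 ± 17.0), with all neighbours overlapping. miR-219a-2-3p stood in the order naive mdx (6.28 ± 3.04 CPM), Givinostat (9.04 ± 2.21), vehicle (10.0 ± 8.17) and naive wt (32.5 ± 26.1), again with all neighbours overlapping. All 4 were lowest on average in naive mdx and highest in naive wt.

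The 5 miRNAs below the filter were compared by count and by a two-sided exact permutation test of the 10 mdx mice against the 3 naive wt mice, whose smallest possible p is 0.00699. None of the 1203 miRNAs with a count passed this test after Benjamini-Hochberg adjustment (0%). None could have passed, since miRNAs at that smallest p, such as miR-206-3p, had an exact permutation adjusted p of 0.055. The unadjusted exact permutation p was under 0.05 for 2 of the 9 (miR-124-3p and miR-219a-2-3p), beside 23.1% of the 1203.

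miR-124-3p, the functional strand of the main neuronal miRNA, had a count in every library but never more than 23. The counts were 4, 1 and 1 in Givinostat mice 31, 34 and 35, then 1, 1, 1 and 3 in vehicle mice 40, 41, 42 and 43. They were 4, 5 and 5 in naive mdx mice 36, 37 and 39, and 4, 23 and 8 in naive wt mice 86, 89 and 95. Naive wt mouse 89 was again the highest. In TMM CPM the gavaged mice, at 0.698 to 2.39, were all below the naive mdx mice, at 2.50 to 3.53, a split seen in the data and not tested on its own. Pooled over the group, the level was 1.43 CPM (95% Poisson interval 0.526 to 3.12) with Givinostat, 1.06 CPM (0.39 to 2.32) with vehicle, 3.31 CPM (1.81 to 5.56) in naive mdx and 5.44 CPM (3.79 to 7.56) in naive wt mice. These intervals cover counting error only. The mean was 1.69 ± 1.05 TMM CPM in mdx mice (SD, n = 10) and 6.42 ± 5.70 in naive wt mice (SD, n = 3), with an exact permutation p of 0.021, adjusted p of 0.119 over 1203 miRNAs. When edgeR was run without the filter, miR-124-3p was called lower in mdx plasma (log2 fold change -1.88, SE 0.482, edgeR adjusted p = 0.00156). It was not called in naive mdx against naive wt (log2 fold change -1.15, edgeR adjusted p = 0.219). In mdx plasma against naive wt, that run also gave miR-9-5p a smaller SE, 0.325 against 0.527 with the filter. The number of all miRNAs it called is not given here, so the call of miR-124-3p lacks a background. The other naive wt mice had 2.53 TMM CPM (mouse 86), within the naive mdx range of 2.50 to 3.53, and 3.76 TMM CPM (mouse 95), just above it.

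miR-124-5p, the passenger strand of miR-124, had 2 counts in naive wt mouse 89 and 0 in the other 12 libraries. A count of 0 allows up to 0.717 CPM over the Givinostat group, 0.532 CPM over the vehicle group, 0.71 CPM over the naive mdx group and 0.214 CPM over all 10 mdx mice. The pooled naive wt level was 0.311 CPM (95% Poisson interval 0.0376 to 1.12), so no difference between genotypes was detectable at this depth.

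miR-129-1-3p, the 3p arm of Mir129-1, had at most 2 counts in any library and none in 6 of 13. Its counts summed to 2 in the Givinostat group, 1 in the vehicle group, 2 in the naive mdx group and 4 in the naive wt group (exact permutation p = 0.21, adjusted p = 0.584, mdx against naive wt). miR-129-2-3p, the 3p arm of Mir129-2, had 0 to 6 counts per library, with a sum of 5 in the Givinostat group, 9 in the vehicle group, 3 in the naive mdx group and 7 in the naive wt group (exact permutation p = 0.867, adjusted p = 1). Both were near the limit of detection in all groups, and only naive wt mouse 89, with 6 counts of miR-129-2-3p, had more than 3 counts of either.

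miR-219a-5p, the arm shared by both miR-219a hairpins, was higher on average in mdx than in naive wt plasma, without passing the test. It had 0, 3 and 2 counts in Givinostat mice 31, 34 and 35 and 5, 2, 1 and 0 counts in vehicle mice 40, 41, 42 and 43. It had 0, 2 and 6 counts in naive mdx mice 36, 37 and 39 and 1 count in each naive wt mouse. The mean was 1.44 ± 1.29 TMM CPM in mdx mice (SD, n = 10) and 0.556 ± 0.0817 in naive wt mice (SD, n = 3), with an exact permutation p of 0.287, adjusted p of 0.697. The naive wt values thus rest on 3 counts in all.

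The 5p and 3p arms were compared by count within miR-9, miR-129 and miR-219a. miR-9-5p exceeded miR-9-3p in 11 of 13 libraries, with 511 against 160 counts in all, a ratio of 3.19. The exceptions were vehicle mouse 43 with 4 against 7 counts and naive mdx mouse 36 with 2 against 2. miR-129-5p exceeded miR-129-2-3p in all 13 libraries, with 625 against 24 counts, although miR-129-5p can also come from Mir129-1. miR-219a-2-3p exceeded miR-219a-5p in all 13 libraries, with 304 against 24 counts, although miR-219a-5p can also come from Mir219a-1. For this last pair the ratio of summed counts was 7.6 in the Givinostat group (38 to 5), 6.88 in the vehicle group (55 to 8), 3.75 in the naive mdx group (30 to 8) and 60.3 in the naive wt group (181 to 3). The difference between these ratios was not tested, and the small 5p counts leave each of them imprecise.

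The other 3p arm of the family, miR-219a-1-3p, whose sequence is given above, was picked for comparison after its values were seen. It had 23.2, 11.3 and 11.9 CPM in naive mdx mice 36, 37 and 39, against 10.8, 3.38 and 8.46 CPM in naive wt mice 86, 89 and 95. The naive mdx mice were all above the naive wt mice, and mouse 89, highest for miR-219a-2-3p, was lowest here. The log2 fold change of 1.04 (SE 0.419, edgeR adjusted p = 0.0542) missed the threshold. The 3p arms of the 2 miR-219a loci therefore had fold changes of opposite sign in the same libraries, one called and one not, and the difference between them was not tested.

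Across the 13 libraries, the 4 tested miRNAs had Pearson correlations of log2(TMM CPM + 1) with each other between 0.419 (miR-9-5p with miR-129-5p) and 0.842 (miR-9-3p with miR-219a-2-3p). With the group means removed, they ran between 0.166 and 0.868 for the same pairs. These are descriptions over 13 libraries that share the group difference and mouse 89. The 2 arms of miR-9 correlated at 0.550. The miRNAs most like miR-219a-2-3p were miR-7a-5p (0.924) and miR-7b-5p (0.891), which are enriched in neurons and endocrine cells, then miR-26b-5p (0.891), miR-126a-5p (0.871), made in endothelium, and let-7g-5p (0.863). Those most like miR-129-5p were miR-7b-5p (0.894), miR-7a-5p, miR-219a-2-3p and miR-383-5p (0.838 each), and miR-126a-3p (0.809). Those most like miR-9-3p were miR-219a-2-3p (0.842), miR-411-5p (0.835), miR-136-5p (0.809), miR-126a-5p (0.808) and let-7g-5p (0.795). Those most like miR-9-5p were miR-26a-5p (0.867), miR-98-5p (0.858), miR-195a-5p (0.833), miR-143-3p (0.824) and miR-26b-5p (0.823), which many tissues make.

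A list of 16 further miRNAs known from nervous tissue was set beside these 9, and 7 of the 16 passed the filter. In naive mdx against naive wt, 3 of the 7 were called lower, 1 higher and 3 not, with a median log2 fold change of -1.32. Among all tested miRNAs, 16.6% were called lower and 26.9% higher in this contrast. The lower ones were miR-7b-5p (-2.20, edgeR adjusted p = 0.035), miR-218-5p, a miRNA of motor neurons (-1.80, edgeR adjusted p = 0.00861), and miR-7a-5p (-1.49, edgeR adjusted p = 0.00645). The higher one was miR-128-3p, which is also made in muscle (2.09, edgeR adjusted p = 0.000159). miR-132-3p (-0.29), miR-338-5p (-0.68) and miR-383-5p (-1.32) did not pass. In the average of the mdx groups against naive wt, 4 were called lower, with miR-383-5p added (-1.10, edgeR adjusted p = 0.0322), and 1 higher. Of all tested miRNAs, 25.3% were called lower and 28.8% higher there. None of the 7 was called in Givinostat against vehicle or in vehicle against naive mdx.

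Of 6 miRNAs of the retina and other sensory tissue, 5 passed the filter. miR-183-5p was lower in naive mdx than in naive wt plasma (log2 fold change -1.09, edgeR adjusted p = 0.0156), and the other 4 did not pass. In the average of the mdx groups against naive wt, 4 of the 5 were called lower: miR-183-5p (-1.22), miR-182-5p, miR-211-5p (-1.40) and miR-204-5p (-0.79). Of all tested miRNAs, 25.3% were called lower in that contrast. Of 5 miRNAs of pancreas and pituitary, 2 passed the filter, and miR-7a-5p, also on the nervous system list, was the only one called, with miR-375-3p at -0.14.

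Several markers of other sources, though not all, differed between naive mdx and naive wt plasma. In this contrast 16.6% of all tested miRNAs were called lower and 26.9% higher. Both liver miRNAs were called lower, with summed levels of 10020 to 89195 CPM in naive mdx mice, against 306285 to 880891 CPM in naive wt mice. All 3 muscle miRNAs were called higher, with 205610 to 419214 CPM in naive mdx mice, against 9569 to 17442 CPM in naive wt mice. Of 3 red blood cell miRNAs, miR-451a and miR-144-3p were called lower. miR-486a-5p, which is also made in muscle, was called higher. The 3 together had summed levels of 3793 to 4055 CPM in naive mdx mice, against 5229 to 6471 CPM in naive wt mice. Red cell rupture is often gauged by miR-451a over miR-23a-3p, which on the log2 scale was -2.20 ± 0.44 for naive mdx plasma and 0.01 ± 0.11 for naive wt plasma (SD, n = 3 each). Both miRNAs entered this gap. The log2 fold change was -1.17 for miR-451a, while miR-23a-3p was itself called higher (1.04, edgeR adjusted p = 0.0016). The log2 ratio was -1.03 ± 0.44 for Givinostat plasma (SD, n = 3) and -1.91 ± 0.22 for vehicle plasma (SD, n = 4). Red cell rupture was not tested. Of 3 white cell and platelet miRNAs, miR-142a-3p was called lower (-0.93, edgeR adjusted p = 0.0392), while miR-150-5p (-0.30) and miR-223-3p (0.04) did not pass. The part of these sources in the levels of the neuron and glia miRNAs was not tested. With the liver and muscle markers taken out of the library totals, an alternative chosen after seeing the data, miR-9-5p, miR-9-3p and miR-219a-2-3p were called lower as before.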

How the data were processed

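Plasma small RNA from 13 mice was sequenced (NEBNext kit, Illumina NextSeq) and grouped by the sample titles. The authors deposited raw counts per mature miRNA (miRBase 21, GRCm38/mm10), and deposited log2 values that were each count times 1 constant per library, with no value for counts of at most 3. The study's methods name Trimmomatic for adapter trimming, the submitters' processing notes cutadapt 1.4.2, and the notes also list bcl2fastq 1.37.0 and Bowtie 1.0.0. Reads of up to 25 bases were mapped with no mismatch. The GEO strain label is C57BL/10J for every mouse, while the treatment text gives the mdx strain. All columns matched a sample (0 did not).

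Counts were tested in R 4.3.3 with edgeR 4.0.16 (quasi-likelihood, TMM, filterByExpr with a minimum count of 10, all 13 libraries in 1 fit) and Benjamini-Hochberg adjustment over all miRNAs tested at a threshold of 0.05. The intervals use the total degrees of freedom of that test. TMM CPM is the count scaled to a common library size after TMM factors. miRNAs with a count were also tested by a two-sided exact permutation test over 286 splits. Intervals of pooled counts are exact Poisson at 95%, and these and the limit of 3 counts cover counting error only. The edgeR p-values set a difference between group means against a spread between mice that was estimated from all 13 libraries. The permutation p places the difference between means among those of the 286 splits. DESeq2 1.42.0, limma 3.58.1 on the log2 values (pseudocounts 1 and 5), other scalings and filters, and leaving out each mouse were alternatives. In the 15 within-group pairs, libraries differed by a chi-square per degree of freedom of at least 104.5, so none was a copy. Labels gave no batch.

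The members and lists were chosen with earlier results of these data known. All 9 members are named, with the 5 most correlated miRNAs of each tested one and, of each list, every miRNA called in any comparison and otherwise up to 4 of the highest mean level.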

Additional observations from a re-analysis of the deposited data

Results flagged for a closer look

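In the vehicle group, the only one with 4 mice, 17 values were checked for a single mouse far from the rest, and 4 had a gap to the nearest mouse, as a share of the group's range, above Dixon's 95% critical value. Chance gives about 1 in 20 for continuous values, which does not apply to the values below that rest on single counts. miR-129-5p was 75.0 CPM in vehicle mouse 41 (gap 0.873 of the range). miR-124-3p was 1.92 CPM in vehicle mouse 43 (gap 0.942), which is 3 counts against 1 in each of the others, so the gap follows from the small counts. miR-129-1-3p was 0.735 CPM in vehicle mouse 41 (gap 1), the only count in that group, which makes the gap 1 whatever its size. The summed miRNAs of the hairpins opposite Mir129-2, Mir219a-1 and Mir219a-2 were 6.62 CPM in vehicle mouse 41 (gap 0.873).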

How the results depend on the processing

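In naive mdx against naive wt, where 3 of the 4 tested miRNAs were called, limma on the deposited log2 values called 0 with a pseudocount of 1 and 1 with a pseudocount of 5. Leaving out each mouse in turn gave 0 to 4 calls, while 126 to 168 of all tested miRNAs were called. There were 0 without naive wt mouse 89, 1 without naive mdx mouse 36 and 2 without naive mdx mouse 39. All 4 were called without vehicle mouse 41 or naive wt mouse 86. Without mice 89 and 41 together, a choice made after seeing the data, 1 was called. In mdx genotype against naive wt, where 2 were called, 5 were called with no filter (miR-124-3p then included). The SE of miR-9-5p was then 0.325, against 0.527 with the filter. With limma, 0 and 1 were called at pseudocounts 1 and 5. Leaving out each mouse gave 0 to 4, while 149 to 224 of all tested miRNAs were called. There were 0 without naive wt mouse 89, 1 without naive wt mouse 95 and 4 without vehicle mouse 41 or naive wt mouse 86. The calls over all miRNAs are not given here for limma, for no filter or without mice 89 and 41 together. Those member counts therefore lack a background. The permutation test called 1 (miR-124-3p, adjusted p = 0.036) when library totals without miR-122-5p replaced TMM, against 0 otherwise and 0 to 0 on leaving out each mouse. With TMM and all mice, the smallest possible p did not pass after adjustment, so 0 was fixed there. On leaving out each mouse, 0 of all miRNAs passed either, so those zeros are no result about the members. The cause of these shifts was not tested.

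In Givinostat against vehicle, log2 fold changes changed sign for miR-9-3p (0.70 and 0.24) and miR-219a-2-3p (0.13 and 0.054) with limma at pseudocounts 1 and 5. Leaving out each mouse gave -0.20 to 1.01 for miR-9-5p, -0.54 to 0.70 for miR-9-3p, -0.70 to 0.37 for miR-129-5p and -0.44 to 0.49 for miR-219a-2-3p. Without mice 89 and 41 together they were 0.75 for miR-9-3p, 0.40 for miR-129-5p and 0.53 for miR-219a-2-3p. In vehicle against naive mdx, miR-129-5p ran from -0.085 to 0.98 on leaving out each mouse and was -0.057 without both. The permutation difference of miR-129-2-3p ran from -0.756 to 0.936 CPM. No member was called in these 2 comparisons under any alternative run.

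In naive mdx against naive wt, the median log2 fold change of all tested miRNAs was 0.04 with TMM, -0.20 with upper-quartile scaling and 0.43 with library totals, and the 4 miRNAs stayed below 0 under each. With a mean of at least 10 CPM, miR-9-3p was not tested, nor was it with only the groups compared in naive mdx against naive wt and vehicle against naive mdx. No paired analysis was possible because the groups share no animal numbers. With 3 or 4 mice a group and levels of a few counts, modest differences were not detectable.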
